A study of Mus musculus with 6 samples.

Results

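The lysosome, autophagy and TFEB family genes described here are 34 genes taken by symbol from a table of 55487 genes. They were chosen with earlier results of these data known, so they are not an independent set. They comprise 3 TFEB family transcription factors, 5 genes of the folliculin complex and the Rag GTPases, and 5 lysosomal or melanosomal membrane proteins. The others are 10 lysosomal enzymes or activators, 3 proton pump subunits, 4 ATG8 proteins and 4 genes of autophagy initiation or lipid kinase complexes. All 34 were found in the table and all 34 were among the 15576 genes that passed a filter on low counts. The cells were wild-type neonatal mouse ventricular cardiomyocytes from pups labelled P1/P2. They were put through negative selection with CD90 antibodies against fibroblasts and plated at 70000 cells per well. Fibroblast markers still had counts, as given below. After 12 h they received DMSO, the solvent control, cyclopamine at 5 µg/ml, an inhibitor of the Hedgehog transducer Smoothened, or GANT61 at 3 µM, an inhibitor of the GLI transcription factors, for 48 h. The labels list 6 samples, 2 for each of the 3 groups, while the table holds 3 columns of read counts, 1 per group, so no difference between groups has a replicate check. The columns hold 35461530 to 38966515 counts. All 12 cardiomyocyte markers had counts in every library and together stood at 56500, 57800 and 47000 CPM in DMSO, cyclopamine and GANT61, where CPM is a count scaled to a common library total after TMM normalization, which evens out differences in library composition. In such bulk libraries fewer cells of a type and less RNA per cell cannot be told apart.

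TFEB, TFE3 and MITF are related transcription factors that bind E-box sequences in the promoters of genes for lysosomal enzymes, the proton pump and autophagy. Their entry to the nucleus is held back when mTORC1, on the lysosome surface, phosphorylates them, and this needs the RagC and RagD GTPases together with folliculin, which acts on those GTPases with FNIP1 or FNIP2. In the heart, lysosomes and autophagy clear worn mitochondria and protein aggregates and break down glycogen.

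Promoter sequences are shown because the E-box CACGTG and the longer palindrome TCACGTGA that contains it are the letters TFEB family factors are known to bind. RefSeq windows of 300 bases, from 250 before to 50 after an annotated start, were available for 29 of the 34 genes in the build GRCm38.p6. The E-box, which reads the same on both strands, was in a window of 10 of these 29 genes (34.5%), against 8.09% of 27025 genes with a window. The palindrome was in 5 of the 29 (17.2%), against 1.12% of all genes. These shares are a description, and a match is not evidence of binding. The sequences below are of 3 kinds: windows of control genes that stood higher with both compounds and hold no E-box, windows of control genes that stood higher and hold an E-box, and windows of lysosomal genes that hold 2 or more E-boxes. Each runs 5′ to 3′ on the gene's strand, and capitals mark each E-box.
Fnip2 (chr3:79567630-79567929, minus strand): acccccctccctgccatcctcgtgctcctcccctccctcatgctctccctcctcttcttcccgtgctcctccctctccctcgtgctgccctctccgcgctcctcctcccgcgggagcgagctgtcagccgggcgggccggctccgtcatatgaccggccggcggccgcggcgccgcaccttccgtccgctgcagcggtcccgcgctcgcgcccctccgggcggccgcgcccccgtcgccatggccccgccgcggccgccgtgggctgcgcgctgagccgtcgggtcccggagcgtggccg
Flcn (chr11:59809990-59810289, minus strand): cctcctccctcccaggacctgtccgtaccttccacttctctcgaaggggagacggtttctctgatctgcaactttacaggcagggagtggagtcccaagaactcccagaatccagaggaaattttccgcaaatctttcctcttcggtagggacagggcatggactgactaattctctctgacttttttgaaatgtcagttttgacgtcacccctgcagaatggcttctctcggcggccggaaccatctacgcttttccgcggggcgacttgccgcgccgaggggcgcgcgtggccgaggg
Fnip1 (chr11:54437929-54438228, plus strand): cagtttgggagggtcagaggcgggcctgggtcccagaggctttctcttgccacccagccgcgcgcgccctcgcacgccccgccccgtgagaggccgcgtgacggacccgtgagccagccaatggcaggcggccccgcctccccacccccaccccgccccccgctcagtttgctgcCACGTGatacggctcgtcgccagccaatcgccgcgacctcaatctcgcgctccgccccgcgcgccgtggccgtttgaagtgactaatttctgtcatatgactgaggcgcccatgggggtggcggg
Rragc (chr4:123917183-123917482, plus strand): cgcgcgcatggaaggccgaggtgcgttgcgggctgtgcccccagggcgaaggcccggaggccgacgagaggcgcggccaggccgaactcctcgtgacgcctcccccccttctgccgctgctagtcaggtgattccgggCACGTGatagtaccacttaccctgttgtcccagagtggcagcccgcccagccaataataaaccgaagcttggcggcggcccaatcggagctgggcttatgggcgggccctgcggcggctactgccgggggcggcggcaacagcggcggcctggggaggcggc
Lamp1 (chr8:13158911-13159210, plus strand): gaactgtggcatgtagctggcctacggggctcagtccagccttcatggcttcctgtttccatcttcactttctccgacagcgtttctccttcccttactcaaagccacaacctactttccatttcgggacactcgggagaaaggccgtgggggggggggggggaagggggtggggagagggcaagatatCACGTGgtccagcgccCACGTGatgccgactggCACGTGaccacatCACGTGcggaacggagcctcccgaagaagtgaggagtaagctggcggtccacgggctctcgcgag
Ctsd (chr7:142387778-142388077, minus strand): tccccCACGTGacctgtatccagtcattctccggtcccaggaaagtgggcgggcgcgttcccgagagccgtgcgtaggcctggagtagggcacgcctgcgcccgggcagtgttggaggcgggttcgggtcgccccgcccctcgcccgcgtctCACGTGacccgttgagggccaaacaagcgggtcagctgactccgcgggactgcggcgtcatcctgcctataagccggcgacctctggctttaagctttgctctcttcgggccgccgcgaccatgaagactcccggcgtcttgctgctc
Mcoln1 (chr8:3500269-3500568, plus strand): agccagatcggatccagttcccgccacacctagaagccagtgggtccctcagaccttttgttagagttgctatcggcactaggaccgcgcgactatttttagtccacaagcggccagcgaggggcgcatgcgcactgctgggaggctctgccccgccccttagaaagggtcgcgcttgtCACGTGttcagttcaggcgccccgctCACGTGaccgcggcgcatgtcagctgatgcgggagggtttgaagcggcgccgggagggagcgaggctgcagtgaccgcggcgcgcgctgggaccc

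The windows of Fnip2 and Flcn above hold no E-box, and neither do those of Rragd and Gpnmb, which are not printed. Those of Fnip1 and Rragc hold 1 E-box each, at 75 and 112 bases before the start when counted from the first base of the match. The Lamp1 window holds 4 E-boxes within the last 61 bases before the start, and those of Ctsd and Mcoln1 hold 2 each, 1 of them inside the palindrome. Windows of Gla and Ctsa hold 2 palindromes each. No match says only that these letters are not in this window.

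**Figure D1:**
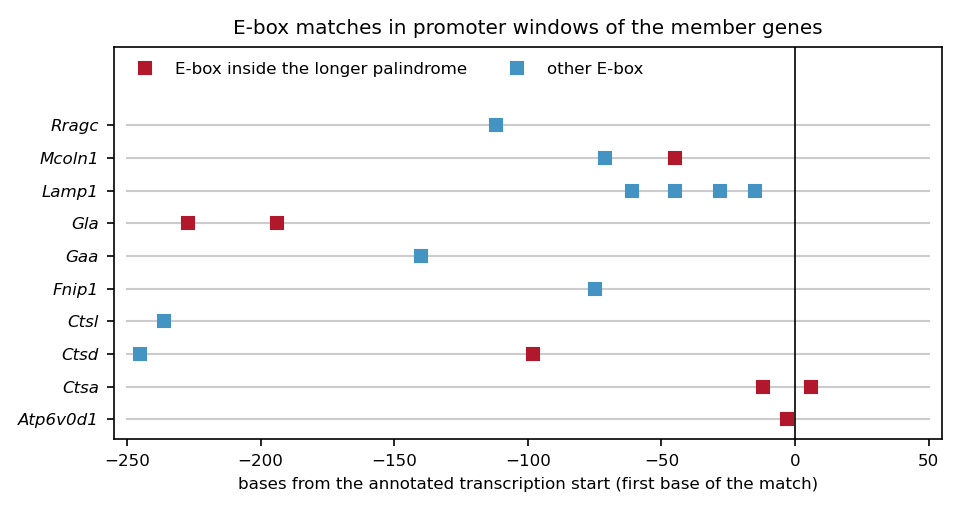
Positions of the E-box in the promoter windows of the 10 genes of the set that hold one. The x axis is the distance in bases from the annotated start to the first base of the match, each row is a gene, and red squares mark E-boxes inside the longer palindrome. Lamp1 holds 4 matches, all of them in the last 61 bases before the start.

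Few of the 34 genes stood apart from DMSO, and those that did were mostly genes that control the TFEB family rather than genes of the lysosome itself. With 1 library per group, higher or lower by size means a difference of 1.5-fold or more whose exact 95% counting interval leaves out 0 on the log2 scale. The intervals cover counting error only, not variation between cultures. In cyclopamine 5 of the 34 genes were higher by size (14.7%, against 4.10% of all 15576 genes) and 0 were lower (7.27% of all genes). In GANT61 7 were higher (20.6%, against 8.40%) and 0 were lower (13.3% of all genes). The log2 fold change had a median of 0.14 in cyclopamine and 0.19 in GANT61, beside 0.00 and -0.01 over all genes. The 5 genes of the cyclopamine count were Fnip2, Flcn, Rragd, Gpnmb and Atp6v0d2, the last of which passed the filter through its 16 counts in that library. Without it the count was 4 of 33. The 7 genes of the GANT61 count were Fnip2, Flcn, Gpnmb, Rragc, Fnip1, Rragd and Cd63. Both comparisons use the same DMSO library, so they are set side by side and not counted as separate evidence. Because the 34 genes were chosen with earlier results of these data known, their shares beside those of all genes are a description only.

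**Figure D2:**
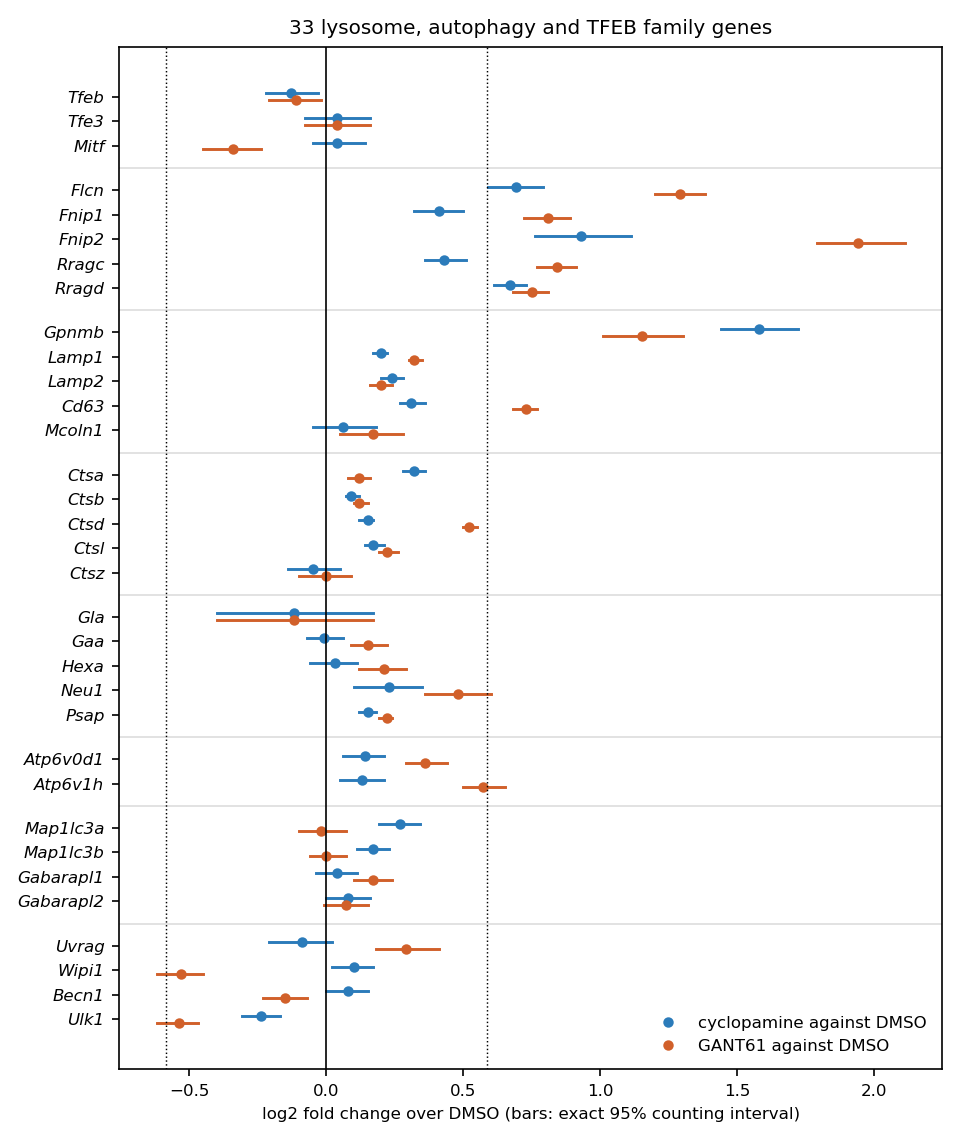
Log2 fold change over DMSO of 33 genes, with cyclopamine in blue and GANT61 in orange; points are fitted values, bars are exact 95% counting intervals, and dotted lines mark 1.5-fold. Atp6v0d2, with at most 16 counts, is not drawn. The folliculin and Rag GTPase genes and Gpnmb lie farthest to the right, up to 1.94 for Fnip2, whereas most enzymes lie near 0.

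The transcription factor genes themselves differed little. Tfeb (chromosome 17, 47737030 to 47792419, GRCm38) had 1857, 1776 and 1669 counts in the DMSO, cyclopamine and GANT61 libraries, and its log2 fold changes over DMSO were -0.13 (95% counting interval, -0.22 to -0.03) for cyclopamine and -0.11 (-0.21 to -0.02) for GANT61. Tfe3 had 1129, 1211 and 1129 counts, and its intervals included no difference in both comparisons. Mitf had 1723, 1850 and 1320 counts, and stood at 0.04 (-0.05 to 0.14) for cyclopamine and -0.34 (-0.45 to -0.24) for GANT61. None of these 3 genes reached 1.5-fold. Scaled for exon length, as CPM per kilobase of annotated exon (RPKM), the DMSO levels were 8.90 for Tfeb, 7.55 for Mitf and 3.31 for Tfe3. Another family member, Tfec, which is best known from macrophages and osteoclasts, had 30, 22 and 8 counts, and was lower by size in GANT61 at -1.65 (-3.20 to -0.71).

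The genes of the folliculin complex stood higher with both compounds, and more so with GANT61. Flcn (chromosome 11, 59791408 to 59810016), which encodes folliculin, the GTPase-activating protein for RagC and RagD, had 1351 counts with DMSO, 2276 with cyclopamine and 3214 with GANT61, or 36.7, 59.3 and 89.8 CPM. DMSO was the lowest library and GANT61 the highest, the log2 fold change being 0.69 (0.59 to 0.79) for cyclopamine and 1.29 (1.2 to 1.38) for GANT61. Fnip2 (chromosome 3, 79455974 to 79567796), one of the folliculin-interacting proteins, had 406, 807 and 1523 counts, or 11, 21 and 42.6 CPM. It was 1.90-fold DMSO in cyclopamine and 3.84-fold in GANT61, log2 fold changes of 0.93 (0.76 to 1.11) and 1.94 (1.79 to 2.11), and it ranked 133 of 15576 genes by fold in GANT61. Its paralogue Fnip1 (chromosome 11, 54438199 to 54518235) had 1775, 2457 and 3018 counts, a log2 fold change of 0.41 (0.32 to 0.50) for cyclopamine, below 1.5-fold, and of 0.81 (0.72 to 0.89) for GANT61. In DMSO Fnip1 was the higher of the pair at 6.77 RPKM, with Fnip2 at 1.32, and in GANT61 the levels were 11.8 and 5.09.

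Of the Rag GTPase genes, Rragd was higher by size with both compounds and Rragc with GANT61, while Rraga and Rragb were not called in either comparison; the difference between the genes was not tested. Rragc (chromosome 4, 123917446 to 123936997), for RagC, had 2679, 3775 and 4670 counts in DMSO, cyclopamine and GANT61, at 0.43 (0.36 to 0.51), below 1.5-fold, and 0.84 (0.77 to 0.91) on the log2 scale. Here and below such a pair of values gives the log2 fold change over DMSO of cyclopamine first and of GANT61 next. Rragd (chromosome 4, 32983037 to 33022180), for RagD, had 3169, 5264 and 5168 counts, at 0.67 (0.61 to 0.73) and 0.75 (0.68 to 0.81), so that its level was close in the inhibitor libraries, at 137 and 144 CPM, and lower in DMSO, at 86.1. Each Rag dimer joins RagC or RagD to RagA or RagB. Rraga had 3233, 2960 and 2485 counts, at -0.19 (-0.26 to -0.12) and -0.34 (-0.42 to -0.26), and Rragb had 149, 155 and 146 counts, with intervals that included no difference.

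**Figure D3:**
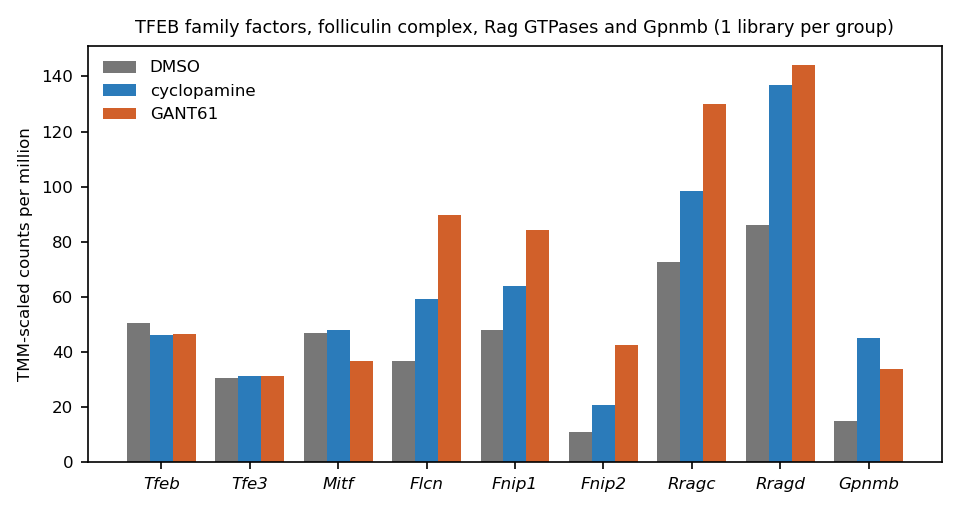
Levels in TMM-scaled CPM in the DMSO (grey), cyclopamine (blue) and GANT61 (orange) libraries, 1 bar per library and without error bars because each group has 1 library. Flcn stands at 36.7, 59.3 and 89.8 and Fnip2 at 11, 21 and 42.6, while Tfeb, at 50.4, 46.2 and 46.6, is nearly level.

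Gpnmb stood apart among the membrane proteins. It encodes a glycoprotein of melanosomes and lysosomes that is known as a target of MITF and TFE3 and is abundant in macrophages. Gpnmb (chromosome 6, 49036546 to 49070929) had 557 counts with DMSO, 1740 with cyclopamine and 1207 with GANT61, or 15.1, 45.3 and 33.7 CPM. It was 2.99-fold DMSO in cyclopamine and 2.22-fold in GANT61, at 1.58 (1.44 to 1.72) and 1.15 (1.01 to 1.30). Flcn, Fnip2, Rragd and Gpnmb were higher by size in both comparisons, and of these 4 Gpnmb alone had its highest CPM in cyclopamine. The 14 macrophage and leukocyte markers summed to 10.5, 15.6 and 8.72 CPM, with 13, 12 and 12 of them having a count, and Fcgr1, C1qb, Cx3cr1 and Itgam at 0 in at least 1 library. Lyz2 held most of these counts, 274, 465 and 163 of 387, 598 and 312. Without it, an alternative chosen after its values were seen, the other 13 markers summed to 3.07, 3.46 and 4.16 CPM, so that the sum stood below DMSO in GANT61 with Lyz2 and above it without. Most of the GANT61 sum without Lyz2 was Csf1r, which held 40, 57 and 107 of 113, 133 and 149 counts and was 2.67-fold DMSO in GANT61. Csf1r shares 15.1% of its exon bases with Hmgxb3 on the other strand, so its level is less certain. The 5 melanocyte markers summed to 1.85, 3.18 and 4.64 CPM, mostly from Mlana, with Tyr and Tyrp1 at 0 in all libraries. The part of either cell type in the Gpnmb counts was not tested.

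The other lysosomal membrane genes moved less. Cd63, a tetraspanin of late endosomes and lysosomes, had 6624, 8596 and 10666 counts, at 0.31 (0.27 to 0.36) and 0.73 (0.68 to 0.77), higher by size with GANT61 alone. Lamp1, the main lysosomal membrane glycoprotein, had 23437, 28033 and 28459 counts, at 0.20 (0.17 to 0.22) and 0.32 (0.30 to 0.35). Lamp2, which also serves chaperone-mediated autophagy, was at 0.24 and 0.20, and Mcoln1, the lysosomal calcium channel whose promoter holds 2 E-boxes, was at 0.06 (-0.05 to 0.18) and 0.17 (0.05 to 0.28). Counting error is small at these depths, so the Lamp1 intervals exclude no difference although the fold was 1.15 and 1.25, and how far 1 culture differs from another is not known.

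None of the 10 lysosomal enzyme and activator genes reached 1.5-fold in either comparison. By the size rule, 4.10% of the 15576 filtered genes stood above DMSO and 7.27% below it in cyclopamine, with 8.40% and 13.3% in GANT61. The absence of a call among 10 genes therefore does not by itself set them apart. Ctsd, for the aspartic protease cathepsin D, came nearest to 1.5-fold, with 22573, 26079 and 31503 counts, at 0.15 (0.12 to 0.17) and 0.52 (0.50 to 0.55). Neu1, for the sialidase neuraminidase 1, was next in GANT61 at 0.48 (0.36 to 0.60) with 956, 1169 and 1296 counts, and was at 0.23 in cyclopamine. Ctsa, for the carboxypeptidase that protects neuraminidase 1, was the highest of the 10 in cyclopamine at 0.32 (0.28 to 0.36) and stood at 0.12 in GANT61. The cysteine protease genes Ctsb, Ctsl and Ctsz lay between -0.05 and 0.22 in both comparisons. Psap, for the precursor of the saposins that activate sphingolipid hydrolases, was at 0.15 and 0.22. Gaa, for the acid glucosidase that degrades lysosomal glycogen, was at -0.01 (-0.07 to 0.06) and 0.15 (0.09 to 0.22), and Hexa, for the hexosaminidase alpha chain, was at 0.03 and 0.21. Gla, for alpha-galactosidase A, had 214, 206 and 192 counts and was at -0.12 in both, with intervals of -0.40 to 0.17 that included no difference. By length-scaled level in DMSO the order was Ctsd at 261 RPKM, Psap at 189, Ctsb at 116, Ctsa at 59.0 and Ctsl at 41.0, with Ctsz, Hexa and Gaa at 34.7, 28.9 and 22.5, Neu1 at 6.96 and Gla at 1.78. 

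Some of these counts may hold reads of neighbouring genes, since the strand setting of the counting is not given in the sources used here. Exon bases of 13 of the 34 genes are also annotated to another gene. Ctsb shares 12.8% of its exon bases with Fdft1, a cholesterol synthesis gene on the other strand, and Fdft1 had 1433, 7919 and 5320 counts beside 25901, 28823 and 27408 for Ctsb. Becn1 shares 43.9% of its exon bases with Cntd1, which had at most 5 counts, and Ctsd shares 34.4% with a gene model that had 0. Gabarapl2, Map1lc3b and Cd63 share 17.0%, 9.39% and 9.10% of the 50-base windows of their longest transcript with other annotated genes, so their levels are less certain. Rragc shares 7.9% of its exon bases with an antisense gene model that is not in the table. Flcn, Fnip1, Fnip2, Rragd and Gpnmb share no exon bases, and at most 0.869% of their windows.

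Of the proton pump genes, the 2 expressed subunits stood slightly higher and Atp6v0d2 was near the limit of detection. The V-ATPase acidifies the lysosome. Atp6v0d1, for the widely expressed d1 subunit of its membrane sector, had 2840, 3259 and 3554 counts, at 0.14 (0.06 to 0.21) and 0.36 (0.29 to 0.44). Atp6v1h, for the H subunit of the cytosolic sector, had 2405, 2752 and 3474 counts, at 0.13 (0.05 to 0.21) and 0.57 (0.50 to 0.65), a fold of 1.49 in GANT61 that is just under the threshold. Atp6v0d2, the d2 isoform known from osteoclasts, macrophages and kidney, had 2, 16 and 0 counts, with exact Poisson intervals of 0.242 to 7.22, 9.15 to 26 and 0 to 3.69. Its ratio of cyclopamine to DMSO was 7.67, with a counting interval of 1.80 to 68.7. Of 6 osteoclast markers Ocstamp, Dcstamp and Calcr were at 0 in all libraries, and the 6 summed to 0.462, 0.364 and 1.23 CPM.

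The ATG8 genes, whose products are coupled to lipid on the autophagosome membrane, stayed within 1.5-fold of DMSO. Given the shares of filtered genes printed with the enzymes, the absence of a call among 4 genes does not by itself set them apart. Map1lc3a had 2572, 3229 and 2475 counts, at 0.27 (0.19 to 0.34) and -0.02 (-0.10 to 0.07). Map1lc3b, for the usual LC3 marker protein, was at 0.17 and 0.00, Gabarapl1 at 0.04 and 0.17, and Gabarapl2 at 0.08 and 0.07. Their lowest count in any library was 2463, that of Gabarapl2 with DMSO. 

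Of the 4 autophagy initiation and lipid kinase complex genes, Ulk1, Wipi1 and Becn1 stood lower in GANT61 than in DMSO, without reaching 1.5-fold. Ulk1 (chromosome 5, 110784488 to 110810097), the kinase that begins autophagosome formation, had 3669, 3243 and 2447 counts, at -0.24 (-0.31 to -0.17) and -0.54 (-0.62 to -0.47), with DMSO the highest library and GANT61 the lowest. Wipi1, a phosphoinositide-binding protein of the forming autophagosome and a known TFEB target, had 2940, 3277 and 1974 counts, at 0.10 (0.02 to 0.17) and -0.53 (-0.62 to -0.45). Becn1, for the Beclin 1 subunit of the lipid kinase complex, was at 0.08 (0.00 to 0.15) and -0.15 (-0.23 to -0.07). Uvrag, another lipid kinase complex gene, was at -0.09 (-0.21 to 0.02) and 0.29 (0.18 to 0.41).

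The inhibitor libraries were also compared with each other, at doses given in different units and so not matched. Of the 34 genes 2 were higher in GANT61 than in cyclopamine by size (5.88%, against 6.16% of all genes), Fnip2 at 1.02 (0.89 to 1.14) and Flcn at 0.60 (0.52 to 0.68). Also 2 were lower (5.88%, against 8.83% of all genes), Wipi1 at -0.63 (-0.71 to -0.55) and Atp6v0d2. These shares are near or below those of all genes. Rragc, Fnip1 and Cd63 were at 0.40 to 0.41, Rragd at 0.08 (0.02 to 0.13), Mitf at -0.38 (-0.49 to -0.28) and Gpnmb at -0.43 (-0.53 to -0.32). The median over the 34 genes was 0.06, beside 0.00 over all genes.

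**Figure D4:**
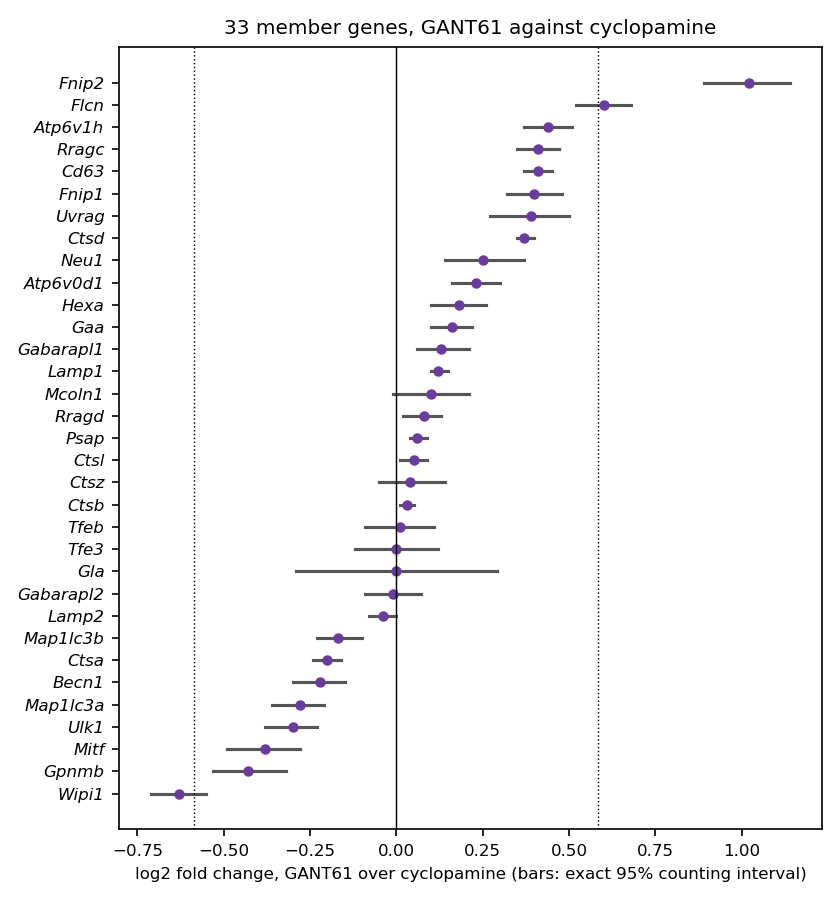
Log2 fold change of GANT61 over cyclopamine for 33 genes, ordered by value, with exact 95% counting intervals as bars and 1.5-fold as dotted lines; Atp6v0d2 is not drawn. Fnip2 at 1.02 and Flcn at 0.60 lie beyond the right line and Wipi1 at -0.63 beyond the left line.

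With both inhibitor libraries taken as 1 arm against DMSO, edgeR's quasi-likelihood test over 15576 genes called 0 genes at an adjusted p of 0.05, and so 0% of all genes and 0 of the 34. Its error is the spread between 2 different compounds, so its p-values do not measure replicate cultures. At an unadjusted p under 0.05 it held 977 genes (6.27%), among them 7 of the 34: Flcn, Fnip1, Fnip2, Rragc, Rragd, Gpnmb and Cd63. All 7 were higher, as were 2.66% of all genes at that p. The lowest value in the set was that of Gpnmb, with a log2 fold change of 1.38, an unadjusted p of 0.000734 and an adjusted p of 0.164 in edgeR. limma-voom called 0 genes of the table, with 1063 (6.82%; 2.40% higher) at an unadjusted p under 0.05 and the same 7 of the set among them. DESeq2's Wald test called 142 of 12556 genes (1.13%), among them Gpnmb (adjusted p = 0.00174) and Fnip2 (adjusted p = 0.0152), and held the same 7 at an unadjusted p under 0.05, beside 4.62% of all genes (2.25% higher). Flcn was at an adjusted p of 0.489 in edgeR and 0.0626 in DESeq2.

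The rest of the pathway was read from 9 lists with 159 further genes, of which 158 passed the filter. In cyclopamine 1 of them was higher by size, Ctss (0.633%, against 4.10% of all genes), and 0 were lower (7.27% of all genes), with a median of 0.03. In GANT61 8 were higher (5.06%) and 11 lower (6.96%), with a median of 0.06, shares below those of all genes. Among 22 genes of mTORC1 and its Ragulator, GATOR and TSC regulators 2 were higher in GANT61 (9.09%, near the 8.40% of all genes) and 0 lower. These were Sesn2, a leucine-sensing inhibitor of mTORC1, with 1043, 1515 and 1905 counts, at 0.48 (0.36 to 0.59) and 0.91 (0.80 to 1.02), and Tsc1, a subunit of the TSC complex that restrains mTORC1, at 0.45 (0.35 to 0.55) and 0.60 (0.50 to 0.71). Of 7 further genes tied to control of the TFEB family, 1 was higher and 1 lower in GANT61, 14.3% each beside 8.40% and 13.3% of all genes. Ppargc1a, the coactivator of mitochondrial biogenesis, was the higher, with 2324, 3384 and 4145 counts, at 0.48 (0.40 to 0.56) and 0.87 (0.80 to 0.95). Tfec was the lower.

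With GANT61, 2 of 14 autophagy receptor genes were higher by size and 2 were lower, 14.3% each beside 8.40% and 13.3% of all genes. None was called in cyclopamine, where 4.10% of all genes were higher and 7.27% lower. Sqstm1, for the ubiquitin-binding receptor p62, had 13496, 15534 and 21715 counts, at 0.14 (0.11 to 0.17) and 0.73 (0.70 to 0.76), and Optn, for optineurin, was at 0.38 (0.25 to 0.50) and 0.97 (0.85 to 1.09). The mitophagy receptor genes Bnip3, with 3930, 3279 and 2197 counts, and Bnip3l were lower, at -0.32 and -0.80 and at -0.18 and -0.62. Sqstm1, Bnip3 and Bnip3l share 20.4%, 62.4% and 23.4% of their 50-base windows with other annotated genes, so that their levels are less certain.

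Among 34 further lysosomal hydrolases none was higher by size with GANT61 (8.40% of all genes) and 6 were lower (17.6%, near the 13.3% of all genes), with a median of -0.22. In cyclopamine 1 was higher (2.94%, against 4.10% of all genes), with a median of 0.00. Gm2a, for the activator of ganglioside breakdown, had 1136, 958 and 614 counts, at -0.31 and -0.85 (-0.99 to -0.70). Ids was at -0.32 and -0.64, and Galns at -0.35 and -0.61. Of 18 further V-ATPase genes, 17 passed the filter, with 1 higher and 1 lower in GANT61 (5.88% each, below the shares of all genes) and a median of 0.23, against 0.15 in cyclopamine. The higher gene was Atp6v0a4, with 3, 1 and 16 counts, which passed the filter through the GANT61 library and is named after its values were seen. Among the 20 further membrane genes 1, the cystine exporter gene Ctns, was higher in GANT61 at 0.59 (0.43 to 0.74) and 1, Cd68, was lower (5% each, below the shares of all genes). Igf2r, for the receptor that carries mannose 6-phosphate enzymes to the lysosome, had 20924, 28253 and 30811 counts, at 0.37 (0.35 to 0.40) and 0.60 (0.57 to 0.62). It was the only call over DMSO among 10 sorting genes (10% higher in GANT61, near the 8.40% of all genes). Of 18 further initiation and lipid kinase genes and 16 conjugation and fusion genes, 0 were called in either direction in either comparison with DMSO. The shares of all genes were 4.10% higher and 7.27% lower in cyclopamine, and 8.40% and 13.3% in GANT61.

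**Figure D5:**
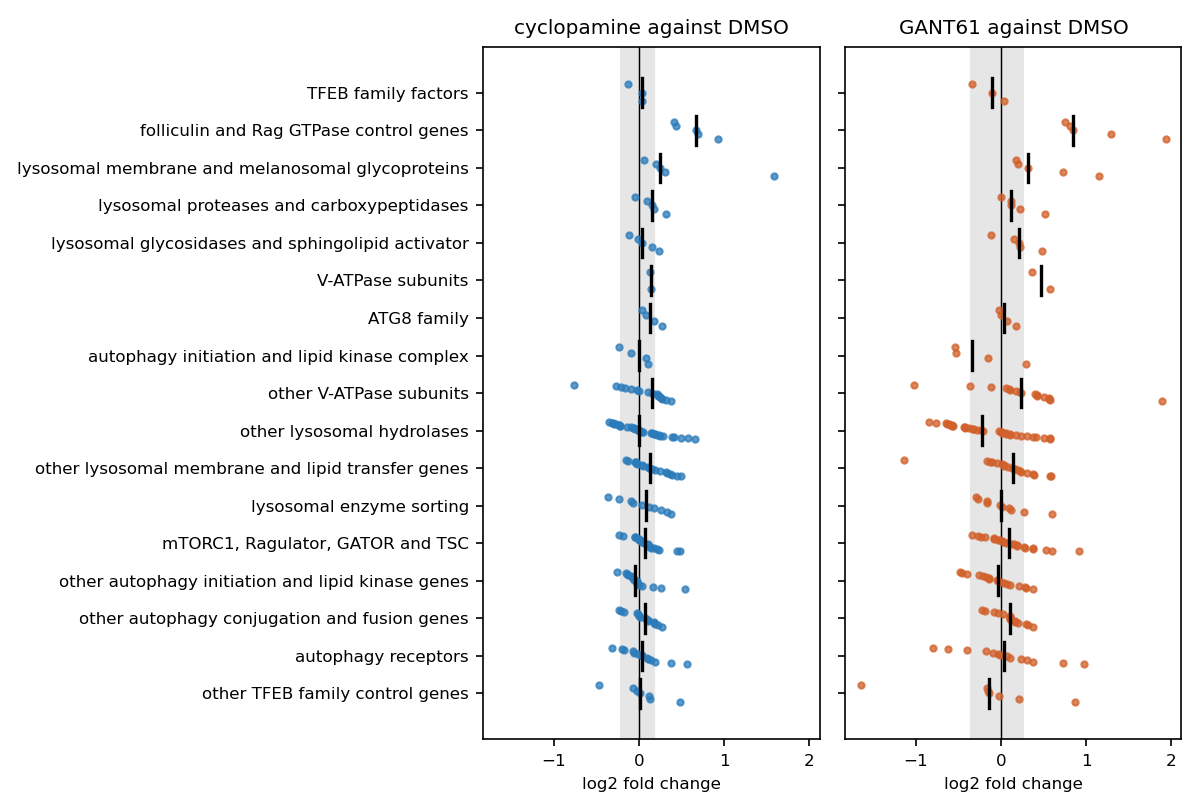
Log2 fold change over DMSO by gene group, 1 point per gene past the filter (Atp6v0d2 not drawn), with the group median as a black bar and the interquartile range of all 15576 genes as grey. The folliculin and Rag group, with medians of 0.67 in cyclopamine and 0.84 in GANT61, is the only group drawn whose points all lie right of the grey band in both panels. Of the Rag genes it holds Rragc and Rragd, while Rraga and Rragb, not called in either comparison, are drawn in the mTORC1 group.

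Markers of other cells differed between the libraries beside these genes. The 10 fibroblast markers summed to 1310, 1020 and 857 CPM in DMSO, cyclopamine and GANT61, the 10 endothelial markers to 99.1, 91.7 and 81.1, the 10 epicardial and mesothelial markers to 260, 236 and 341, and the 10 smooth muscle and pericyte markers to 2750, 1880 and 1690. Acta2 held 57706, 36238 and 34683 of the 101333, 72273 and 60531 counts of the smooth muscle and pericyte list. In that list Myh11 had 21, 25 and 18 counts, Rgs5 had 2, 0 and 6, and Notch3 had 71, 107 and 162. Of the 10 epicardial and mesothelial markers 7 were higher by size in GANT61, beside 8.40% of all genes, and 3 were higher and 1 lower in cyclopamine, beside 4.10% and 7.27%, with medians of 1.42 and 0.12 on the log2 scale. The lower marker was Krt18, with 4015 counts in DMSO and 2509 in cyclopamine, at -0.74. In GANT61 1 of 9 fibroblast markers past the filter was higher (11.1%) and 3 lower (33.3%), beside 8.40% and 13.3% of all genes. The smooth muscle and pericyte list gave the same shares, and 2 of 10 endothelial markers were lower (20%). In cyclopamine 1 fibroblast marker was higher (11.1%), 1 endothelial marker lower (10%), and 22.2% of smooth muscle and pericyte markers went each way. Dcn was the higher fibroblast marker, at 0.78 and 1.04. Col1a1 held 21897, 16397 and 13134 and Col1a2 15371, 11890 and 9789 of the 48147, 39007 and 30667 fibroblast marker counts. In GANT61, 2 of the 9 fibroblast markers past the filter stood above 0, Dcn and Tcf21, the latter at 0.50 (0.21 to 0.80). Pdgfra was at -0.07 (-0.24 to 0.10). All 10 endothelial and all 10 epicardial markers had counts in every library, Fap was at 0 in GANT61 and Rgs5 at 0 in cyclopamine. Thy1, the gene for CD90 and 1 of the fibroblast markers, had 3050, 2834 and 1207 counts in DMSO, cyclopamine and GANT61. The part of these cells in the levels of the folliculin and Rag genes was not tested.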

How the data were processed

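Messenger RNA libraries of cultured neonatal mouse cardiomyocytes were made with a stranded kit, per the labels' protocols. Per the submitters' processing notes, the tools were HISAT2 2.1.0, featureCounts, Trimmomatic 0.33 and FastQC, and the build was GRCm38. Which annotation and strand setting served for counting is not given in the sources used here. The authors deposited whole-number read counts for each gene, with no normalization, in 1 column per group, and whether that column pools replicates is not stated.

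Here genes were filtered with edgeR's filterByExpr, scaled by TMM (edgeR 4.0.16) and put on a log2 CPM scale (prior count 2); intervals are exact conditional binomial. With 1 column per group, groups were compared pairwise by size and not tested. The 2-arm test used edgeR's robust quasi-likelihood fit with Benjamini-Hochberg adjustment, with DESeq2 1.42.0 and limma-voom (limma 3.58.1) as alternatives. The size rule and tests were checked on simulated data. Positions and exon lengths are from GENCODE mouse release 21, which matched 55227 of 55487 gene IDs, and promoter windows are from RefSeq (GRCm38.p6). The members, lists and rules were chosen with earlier results of these data known. All members are named, and of each further list up to 4 genes called by size with a mean of at least 5 CPM and the largest fold; Tfec, Ctss, Cd68, Atp6v0a4, Rraga, Rragb and the genes of the closing section were chosen after their values were seen. A gene that this rule names is not reported here.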

Additional observations from a re-analysis of the deposited data

How the results depend on the processing

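Scaling by library size or by DESeq2 size factors, no filter, and a prior count of 0.5 left every count of genes called by size in the comparisons within 1.5 times, and no fold change of a called gene turned sign in any setting. With a threshold of 1.2-fold the counts were 10 higher in cyclopamine, 13 higher and 3 lower in GANT61, and 8 higher and 6 lower in GANT61 against cyclopamine, while over all genes 1638 were higher and 2193 lower in cyclopamine, 3040 and 3576 in GANT61, and 2459 and 2754 in GANT61 against cyclopamine. With 2-fold they were 2 higher, 3 higher, and 1 higher and 1 lower, in the same order. Among all 15576 genes past the main filter, 345 were higher and 607 lower, 629 and 1191, and 465 and 676. With at least 5 CPM in 2 libraries, which drops Atp6v0d2, 1 gene was lower in GANT61 against cyclopamine. The same held in the set without Atp6v0d2, an alternative added after seeing the data. The 5 CPM filter kept 10084 genes. Of these, 184 were higher and 263 lower in cyclopamine, and 606 and 854 in GANT61. For GANT61 against cyclopamine they were 270 and 483. In the 2-arm test the members called were 0 in the edgeR fit, 0 with library size only (18 genes in all), 4 without a filter (482 in all; Flcn, Fnip2, Rragd and Gpnmb) and 2 with DESeq2 (142 in all), and the cause was not tested. The genes tested numbered 15576 in the edgeR fit and with library size only, 22450 without a filter and 12556 with DESeq2. These member counts therefore do not all share the same base. Leaving out 1 inhibitor library in turn leaves the pairwise medians of the set already given, 0.14 for cyclopamine and 0.19 for GANT61. The edgeR fit of both as 1 arm gave 0.16. Nothing was refitted, so these medians are no separate check. The share of genes with a promoter motif was 34.5% for CACGTG, 17.2% for TCACGTGA and 10.3% for CATGTG, added after seeing the data and found in 15.9% of all genes. No paired analysis was possible because the count table holds 1 column per group without a replicate number.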

Other observations

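Some genes of lysosomes and related organelles outside the set, chosen after their values were seen, differed by size in at least 1 comparison, on few counts. Mlana, for a melanosomal protein and a known MITF target, had 47, 100 and 149 counts in the DMSO, cyclopamine and GANT61 libraries (exact 95% Poisson bounds 34.5 and 62.5, 81.4 and 122, 126 and 175). Its log2 fold change over DMSO was 1.00 (0.51 to 1.56) for cyclopamine and 1.66 (1.22 to 2.21) for GANT61. Acp5, for the tartrate-resistant acid phosphatase of osteoclasts and macrophages, had 10, 12 and 37 counts. Ctss, a protease gene of antigen-presenting cells, had 66, 110 and 37 counts, at 0.66 (0.22 to 1.14) and -0.76 (-1.42 to -0.19), and Cd68, a lysosomal membrane gene of macrophages, had 41, 51 and 17. The macrophage marker Lyz2 had 274, 465 and 163 counts, in the same order of libraries as Ctss and Cd68, whereas Csf1r, another macrophage marker, had 40, 57 and 107.

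The authors' deposited lists hold 6612 higher and 6461 lower genes by the ratio of the mean raw counts of both inhibitors to DMSO, at a threshold of 1.2 with no scaling. The table has 55487 genes, 22450 of them with a count in at least 1 library, so a large part of the counted genes is in a list. Of the 34 genes 12 are in the authors' deposited higher list, 1, Ulk1, is in the lower list and 21 are in neither.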
